A study of Mus musculus with 4 samples.

Results

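Glutathione S-transferases join glutathione to reactive compounds, which makes them soluble and marks them for export from the cell. The alpha (Gsta), mu (Gstm), pi (Gstp), theta (Gstt) and omega (Gsto) classes are cytosolic proteins, and Mgst1 is an unrelated enzyme of membranes that carries out the same kind of reaction. Transcription of many of these genes is known to be driven by NRF2, a factor that is released from its inhibitor KEAP1 by electrophiles and binds antioxidant response elements in DNA with small MAF proteins. Here 10 such genes were followed, namely Gsta1, Gsta2, Gsta3, Gsta4, Gstm1, Gstm2, Gstp1, Gstt1, Gsto1 and Mgst1, out of 54446 genes in the table. The members were picked by name with their values in these libraries already known, so the values below are a description of 4 libraries and carry no test.

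RNA was sequenced from mammary gland cells of wild type C57BL/6 mice that had been sorted as basal or luminal, embedded in Matrigel and cultured with DMSO, the solvent control, or with 100 μM baicalin, a flavonoid of Scutellaria roots. The 4 groups were therefore basal cells with DMSO, basal cells with baicalin, luminal cells with DMSO and luminal cells with baicalin, with 1 library in each. No age, animal number or length of treatment is tied to a library in the labels. Between 19356026 and 20648780 counted fragments lay behind each library. All values are FPKM, fragments scaled by exon length and by the library's counted fragments. The length is that of all annotated exons of a gene together, 4344 bases for Gsta3 and 956 for Gsta1. Which transcripts were present is not known, so orders of genes and shares of classes are approximate. With 1 library per condition no replicate error exists, and the 95% intervals given are exact Clopper-Pearson intervals on the fragments, which cover counting error only.

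The basal and general luminal markers went against the labels. All 10 basal markers, among them Krt5, Krt14, Trp63 and Acta2, were higher in the library labelled luminal than in the library labelled basal, with DMSO and with baicalin alike. Of 10 luminal markers, among them Krt8 and Krt18, 0 were higher in the library labelled luminal with DMSO and 1 was with baicalin. Of 8 markers of alveolar luminal cells, 2 were higher in the library labelled luminal with DMSO and 1 was with baicalin, with Wap at 0 in every library. The list of hormone-sensing luminal cells was split, with 4 of 6 markers higher in the library labelled luminal with DMSO and 3 of 6 with baicalin. Esr1, the oestrogen receptor, was at 0.992 and 0.982 FPKM under the basal label and at 1.44 and 0.723 FPKM under the luminal label, with DMSO and baicalin in turn, and Pgr, the progesterone receptor, was at 1.08, 0.911, 4.81 and 2.09 FPKM in the same order. The groups are therefore called by their labels, and no direction between them is read as one between basal and luminal cells. Markers of hepatocytes, a cell rich in alpha-class transferases, summed to between 0.251 and 0.815 FPKM, with Alb, Ttr and Serpina1a at 0 in every library. Summed fibroblast markers lay between 2.60 and 10.4 FPKM, endothelial markers between 0.848 and 3.19 FPKM, immune markers between 5.98 and 54.4 FPKM, and adipocyte markers between 0.163 and 15.6 FPKM.

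With baicalin the alpha-class genes were higher under both labels, by between 4.15-fold and 267-fold where a ratio can be given, and of the 10 genes they had the 4 largest log2 changes in each pair. Gstp1 and Gsto1 were also higher under both labels, by 1.41-fold to 2.50-fold. Gstm1 was 2.65-fold higher in the pair labelled basal and 1.78-fold lower in the pair labelled luminal. Gstm2, Gstt1 and Mgst1 stayed within a log2 change of 1 in both pairs. Since the RNA came from whole cultures, a change in the cells present and a change in RNA per cell cannot be told apart. With baicalin the summed basal markers went from 1761 to 479 FPKM under the basal label, with 1 of 10 higher. Under the luminal label their sum went from 5404 to 7199 FPKM, with 5 of 10 higher. Krt5, Krt14 and Krt17 were among these 5, while Acta2 went from 555 to 417 FPKM and Tagln from 97.6 to 47.2 FPKM. The summed luminal markers went from 4617 to 3280 FPKM and from 1397 to 1208 FPKM, with 3 of 10 higher in each pair. Of 6 immune markers 1 was higher with baicalin under the basal label, Cd68, from 7.49 to 51.5 FPKM, while Ptprc, Cd3e and Adgre1 were at 0 in that baicalin library, and 5 of 6 were higher under the luminal label, Cd68 from 4.44 to 13.7 FPKM. Antibodies to the blood and endothelial markers CD45, TER119 and CD31 were among those of the sort. The part of these markers in the baicalin differences was not tested.

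**Figure D1:**
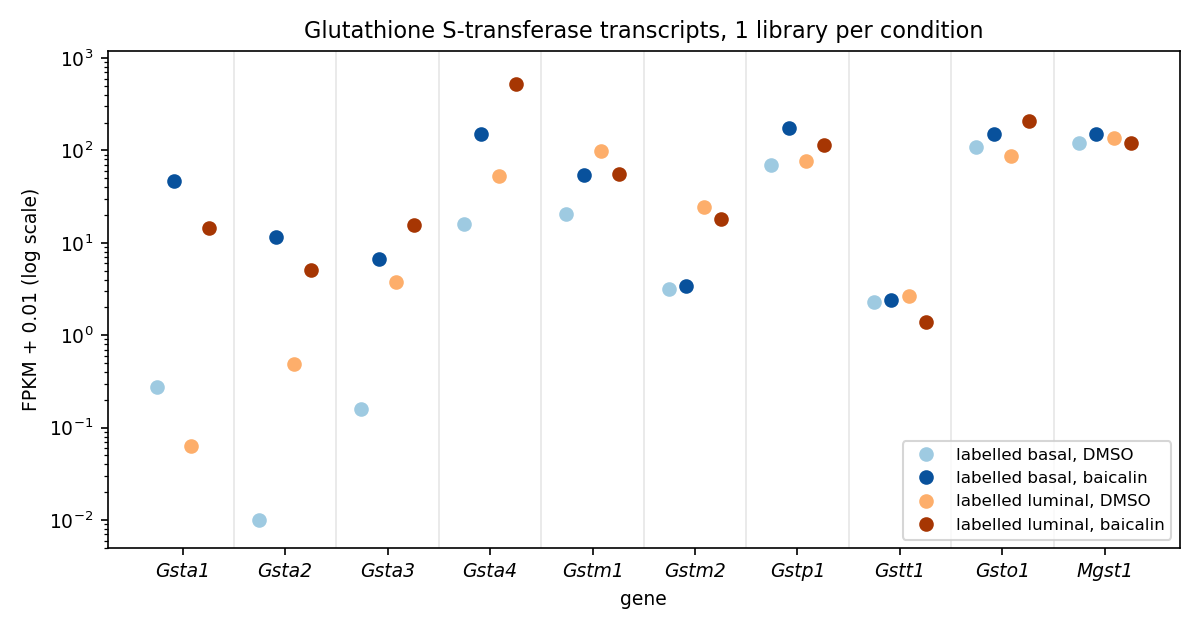
FPKM of the 10 genes in the 4 libraries, on a log scale after 0.01 was added so that a value of 0 can be drawn, with 1 point per library and no error bars. For Gsta1, Gsta2, Gsta3 and Gsta4 the baicalin library of each label lies above its DMSO library, while Mgst1 stays between 119 and 149 FPKM.

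Gsta1 (ENSMUSG00000074183, GRCm38 chromosome 9, 78230656 to 78242684, plus strand) encodes an alpha-class enzyme that conjugates glutathione and reduces lipid hydroperoxides. It had 0.263 FPKM with DMSO and 46.4 FPKM with baicalin under the basal label, or 5 and 899 fragments. The pair labelled luminal had 0.0540 FPKM with DMSO and 14.4 FPKM with baicalin, or 1 and 285 fragments. Both baicalin libraries were high and both DMSO libraries were close to 0. The ratios were 176 (95% interval 75.1 to 543) and 267 (47.6 to 10589), and the second rests on a single DMSO fragment. As log2 ratios after adding 1 FPKM to each value, the changes were 5.23 and 3.87, the highest and the second highest of the 17787 genes above 0 in all 4 libraries.

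Gsta2 (ENSMUSG00000057933, chromosome 9, 78331018 to 78355788, minus strand) encodes a close relative of Gsta1. It was listed at 0 in the DMSO library labelled basal, which allows a level of up to 3 fragments, and at 11.6 FPKM (277 fragments) in the baicalin library, at least 90.4-fold higher against 3 fragments. In the pair labelled luminal it had 0.483 FPKM with DMSO (11 fragments) and 5.02 FPKM with baicalin (122 fragments), a ratio of 10.4 (5.61 to 21.4). Because of its 0, Gsta2 is the only one of the 10 genes outside the 17787.

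Gsta1 and Gsta2 share most of their sequence with each other and with 2 neighbours in the same cluster, Gm3776 and Gm10639, so the split of fragments among these genes is uncertain. The Gsta1 transcript was 99.5% identical to Gm3776 over 874 bases, 97.2% to Gsta2 over 870 bases and 96.6% to Gm10639 over 874 bases. Within the 672 coding bases, Gsta1 and Gm3776 differed at 2 positions. Gsta1 and Gsta2 differed at 14 positions, with 3 further bases present in only one of them. The stretch below, bases 550 to 669 of the Gsta1 coding sequence from GENCODE transcripts, is the ungapped window of 120 bases with the most differences, 7 of the 16 positions at which the 3 genes differ. Capitals mark those positions.
Gsta1: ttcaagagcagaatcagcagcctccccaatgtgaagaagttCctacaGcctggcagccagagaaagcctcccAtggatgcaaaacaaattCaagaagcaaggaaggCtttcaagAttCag
Gm3776: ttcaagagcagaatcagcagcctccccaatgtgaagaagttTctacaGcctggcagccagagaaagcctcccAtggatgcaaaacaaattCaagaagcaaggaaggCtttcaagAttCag
Gsta2: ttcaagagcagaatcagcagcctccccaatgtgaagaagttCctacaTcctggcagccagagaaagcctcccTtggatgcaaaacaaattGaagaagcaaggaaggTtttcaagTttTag
The capitals show how few bases can assign a fragment to one of these genes.

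Fragments summed over copies depend less on how they were split between them. Gsta1 and Gsta2 together had 0.263 FPKM with DMSO and 58.0 FPKM with baicalin under the basal label, and 0.537 and 19.5 FPKM under the luminal label. Their depth-scaled fragments were 230-fold (98.4 to 710) and 31.8-fold (18.0 to 62.0) higher with baicalin. Gm3776 alone went from 0.749 to 41.6 FPKM under the basal label and from 0.177 to 11.9 FPKM under the luminal label. It was close to Gsta1 in the baicalin libraries and listed above it in both DMSO libraries. All 4 copies together had 18 and 15 fragments in the DMSO libraries labelled basal and luminal, so the order of Gm3776 and Gsta1 there is uncertain. Gm10639 was listed at 0 in both DMSO libraries and at 0.459 and 0.857 FPKM with baicalin. The sum of Gsta1 and Gsta2 still depends on the split with Gm3776. With both copies added, the sum was 105-fold (66.0 to 177) and 40.0-fold (24.1 to 71.9) higher, so the order of the labels seen for the sum of Gsta1 and Gsta2 also held for all 4 copies. The intervals of the 4-gene sums under the 2 labels overlap.

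Gsta3 (ENSMUSG00000025934, chromosome 1, 21240589 to 21265661, plus strand) encodes a further alpha-class enzyme. It lies away from the cluster, and its coding sequence was 74.2% identical to that of Gsta1. It had 0.151 FPKM with DMSO and 6.65 FPKM with baicalin under the basal label, a ratio of 44.1 (25.6 to 83.4). The luminal label already had 3.78 FPKM with DMSO and had 15.7 FPKM with baicalin, a ratio of 4.15 (3.67 to 4.71). Gsta3 was thus near 0 in 1 library and between 3.78 and 15.7 FPKM in the others, and the 2 intervals do not overlap.

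Gsta4 (ENSMUSG00000032348, chromosome 9, 78182774 to 78209349, plus strand) encodes an alpha-class enzyme specialised for 4-hydroxynonenal and related products of lipid peroxidation. With DMSO it had 16.0 FPKM in the library labelled basal and 52.4 FPKM in the library labelled luminal. With baicalin it had 149 and 518 FPKM in the same order. The ratios, 9.36 (8.44 to 10.4) and 9.88 (9.33 to 10.5), overlap in their intervals. Of the 10 genes it had the most even response across the labels, with log2 changes of 3.15 and 3.28. In the luminal-labelled baicalin library 13544 fragments lay on this gene alone, and 99.8% of genes above 0 there had a lower FPKM.

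**Figure D2:**
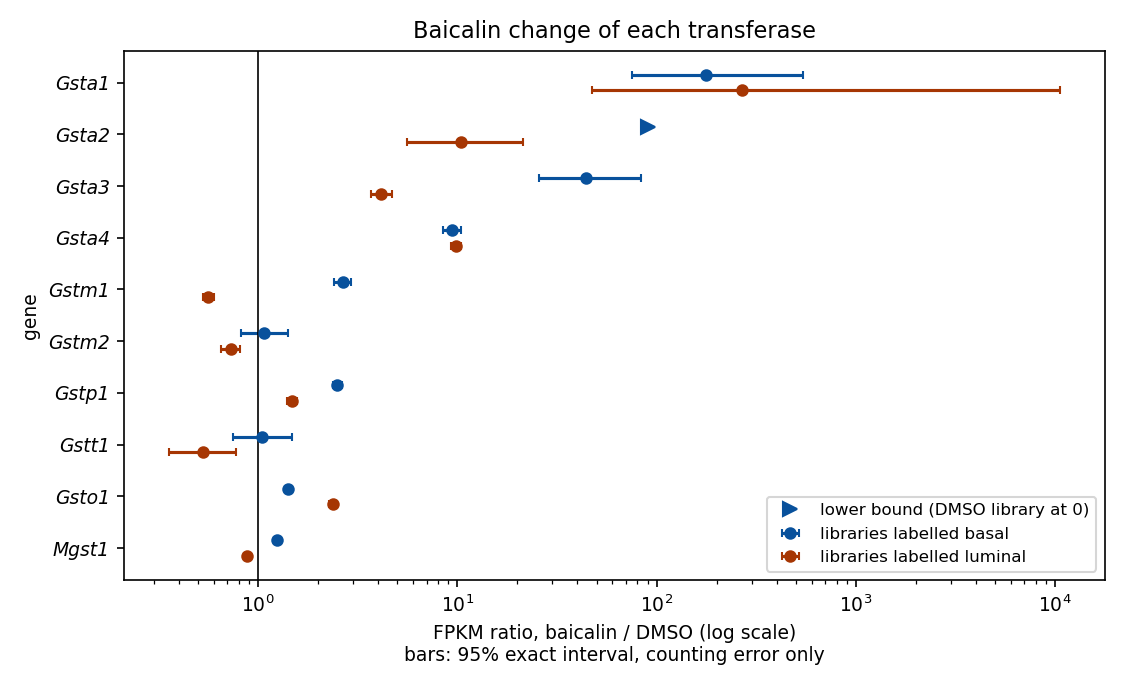
FPKM ratio of baicalin to DMSO for each gene on a log scale, with points for the pair of libraries labelled basal and for the pair labelled luminal, and bars for the 95% exact interval from fragment counts and a triangle for the lower bound of Gsta2. Gsta4 has nearly equal ratios of 9.36 and 9.88, and Gstm1 lies on opposite sides of 1.

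The mu class moved in another way. Gstm1 (ENSMUSG00000058135, chromosome 3, 108012255 to 108017973, minus strand), a broad detoxification enzyme, had 20.4 FPKM with DMSO and 54.1 FPKM with baicalin under the basal label, a ratio of 2.65 (2.41 to 2.92). The pair labelled luminal had 98.5 FPKM with DMSO and 55.5 FPKM with baicalin, a ratio of 0.563 (0.530 to 0.599). The DMSO libraries were thus far apart and the baicalin libraries close together. Its log2 changes were 1.36 and -0.82, a difference of 2.18 between the labels, and 99.8% of the 17787 genes had a lower difference. Added to Gstm2-ps1, a near-identical pseudogene, the log2 changes were 1.39 and -0.81.

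Gstm2 (ENSMUSG00000040562, chromosome 3, 107981702 to 107986453, minus strand) encodes a second mu-class enzyme, with a coding sequence 86.0% identical to that of Gstm1. It had 3.18 and 3.41 FPKM under the basal label, a ratio of 1.07 (0.816 to 1.41) that did not exceed the counting error. With the luminal label it had 24.6 FPKM with DMSO and 17.9 FPKM with baicalin, a ratio of 0.728 (0.654 to 0.809). Levels of Gstm2 therefore followed the label more than the treatment.

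Gstp1 (ENSMUSG00000060803, chromosome 19, 4035407 to 4037985, minus strand) encodes the pi-class enzyme, which is abundant in many epithelia. It had 69.7 FPKM with DMSO and 174 FPKM with baicalin under the basal label, a ratio of 2.50 (2.38 to 2.63). The values under the luminal label were 77.5 and 115 FPKM, a ratio of 1.48 (1.40 to 1.56). Both baicalin libraries were above both DMSO libraries. Gstp1 is 98.2% identical to Gstp2 over 707 bases and 97.6% identical to the pseudogene Gstp-ps over 631 bases. Summed over these 3 genes the log2 changes were 1.36 and 0.58, against 1.31 and 0.56 for Gstp1 alone.

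Gsto1 (ENSMUSG00000025068, chromosome 19, 47854970 to 47864790, plus strand) encodes the omega-class enzyme, which reduces dehydroascorbate and arsenic compounds. Its response was the reverse of that of Gstp1 in the order of the labels. It had 108 FPKM with DMSO and 152 FPKM with baicalin under the basal label, a ratio of 1.41 (1.36 to 1.47). The luminal label had 88.0 and 208 FPKM, a ratio of 2.37 (2.28 to 2.46). Again both baicalin libraries were above both DMSO libraries.

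Gstt1 (ENSMUSG00000001663, chromosome 10, 75783813 to 75798584, minus strand) encodes the theta-class enzyme, which acts on small halogenated compounds. It was the lowest of the 10 genes in both baicalin libraries. Under the basal label it had 2.31 and 2.42 FPKM, a ratio of 1.05 (0.747 to 1.47) within the counting error. Under the luminal label it had 2.64 FPKM with DMSO and 1.39 FPKM with baicalin, or 78 and 44 fragments, a ratio of 0.529 (0.357 to 0.775).

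Mgst1 (ENSMUSG00000008540, chromosome 6, 138140316 to 138156755, plus strand) encodes the microsomal enzyme of the endoplasmic reticulum and outer mitochondrial membrane. It had 119.8 FPKM with DMSO and 149 FPKM with baicalin under the basal label, a ratio of 1.25 (1.20 to 1.29). In the pair labelled luminal it had 136 and 119 FPKM, a ratio of 0.879 (0.846 to 0.914). Its 4 levels lay within a narrow range, and the directions under the 2 labels were opposite.

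By number, 5 of the 9 genes in the filter (Gsta1, Gsta3, Gsta4, Gstm1 and Gstp1) passed a log2 change of 1 upward with baicalin under the basal label, and 2.15% of the 17787 genes were. Gsta2, outside the filter, was higher by 3.66. Under the luminal label 4 of the 9 (Gsta1, Gsta3, Gsta4 and Gsto1) were higher by more than 1, and 2.37% of the 17787 genes were. Gsta2 was higher by 2.02. None of the 10 genes was lower by more than 1 in either pair, against 3.33% and 1.59% of all genes tested. The median log2 change of the 10 genes was 1.34 under the basal label and 0.90 under the luminal label, beside 0.01 and -0.02 over all genes tested. The genes were chosen with these contrasts known, so nothing is read from these counts.

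**Figure D3:**
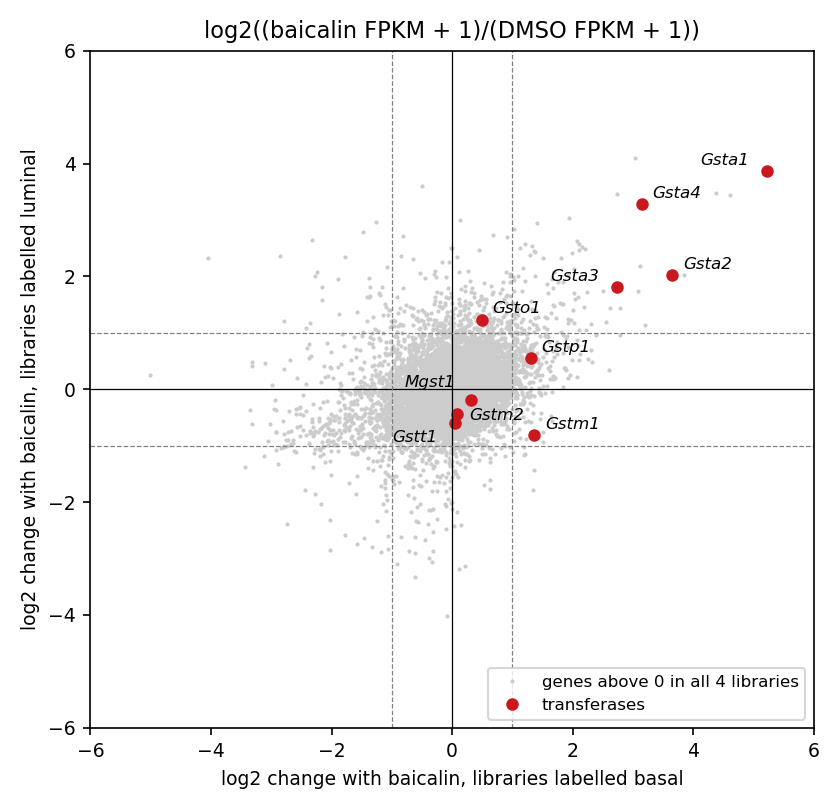
Log2 change with baicalin, with 1 FPKM added to each value, in the pair labelled basal (horizontal axis) and in the pair labelled luminal (vertical axis), for the 17787 genes above 0 in all 4 libraries (grey) and the 10 transferases (red), with dashed lines at a change of 1. The 4 alpha-class genes lie past both dashed lines in the upper right, and Gstm1 lies at 1.36 and -0.82.

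Altogether the 10 genes summed to 339 FPKM with DMSO and 749.6 FPKM with baicalin under the basal label, and to 484 and 1070.5 FPKM under the luminal label. The summed FPKM were 2.21-fold higher with baicalin under both labels, but the classes behind the sums differed. Alpha-class genes held 4.82% of the sum with DMSO and 28.5% with baicalin under the basal label, where Gstp1 held 20.5% and 23.3%. Under the luminal label the alpha class went from 11.7% to 51.7%, and Gsta4 alone held 48.4% with baicalin. The share of the mu class was 25.5% with DMSO and 6.86% with baicalin there, while under the basal label it was 6.94% and 7.67%.

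**Figure D4:**
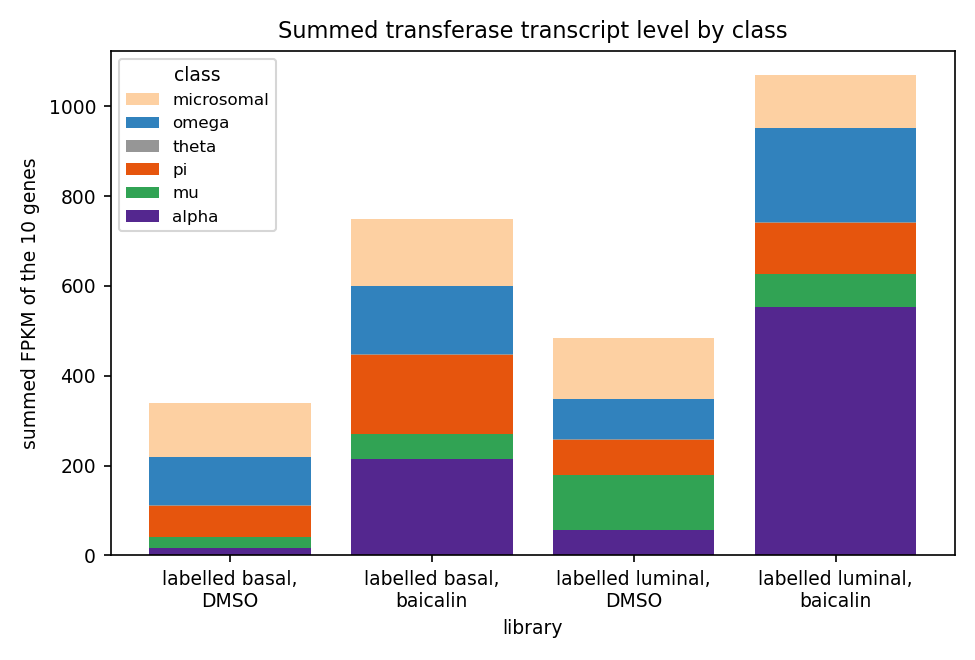
Summed FPKM of the 10 genes in each library, stacked by class, with the alpha class (4 genes) at the bottom and Mgst1 on top, the theta class (Gstt1) being too low to be seen. The sums are 339, 749.6, 484 and 1070.5 FPKM from left to right.

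The order of the genes also changed. With DMSO, Mgst1 was the highest of the 10 under both labels, followed by Gsto1 and Gstp1 under the basal label and by Gstm1 and Gsto1 under the luminal label. The lowest were Gsta1, Gsta3 and Gsta2 under the basal label and Gsta2 and Gsta1 under the luminal label, and the exact Poisson intervals of neighbours among these overlapped. With baicalin, Gstp1 was highest under the basal label, followed by Gsto1, Gsta4 and Mgst1, whose intervals overlapped from one to the next. Gsta4 was highest under the luminal label, 2.49 times the level of Gsto1, the next gene. Mgst1 and Gstp1, and also Gsta3 and Gsta1, did not differ there beyond their intervals, which do not cover the exon length used. Gsta3 had 1409 fragments there over 4344 bases and Gsta1 285 over 956 bases, so their order depends on that length.

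Between the labels, the DMSO libraries differed in most of the alpha-class and mu-class genes. The library labelled luminal had 7.75 times (6.32 to 9.58) the Gstm2 level of the library labelled basal and 25.1 times (14.5 to 47.6) its Gsta3 level. Gstm1 was 4.83-fold (4.42 to 5.29) and Gsta4 3.29-fold (2.94 to 3.69) higher. Gsta2, with 11 fragments against 0, was at least 3.76-fold higher and cannot be ranked among them. Gsta3, Gstm2, Gstm1 and Gsta4, 4 of the 9 genes in the filter, passed a log2 difference of 1 upward, against 4.71% of the 17787 genes, and none was lower by more than 1, against 3.86%. For Gsta1 and Gstt1 the label difference did not exceed the counting error. In the same libraries the 10 basal markers summed to 5404 FPKM under the luminal label and 1761 FPKM under the basal label, and the adipocyte markers to 15.6 and 0.163 FPKM. Their part in the label differences was not tested.

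Under baicalin the label differences were others. Gstm1, at 55.5 and 54.1 FPKM, differed by less than the counting error, with a ratio of 1.03 (0.958 to 1.10). Gstm2, Gsta4 and Gsta3 still passed a log2 difference of 1 upward in the library labelled luminal, 3 of the 9 genes against 5.24% of all genes tested, with ratios of 5.27 (4.31 to 6.48), 3.47 (3.35 to 3.60) and 2.36 (2.14 to 2.61). Gsta1, at 14.4 against 46.4 FPKM, was lower by more than 1, 1 of the 9 genes against 2.99% of all genes tested, and 3.21-fold (2.81 to 3.68) lower as a ratio. Gsta2 was 2.31-fold lower. Both comparisons between labels use the same libraries as the baicalin comparisons, so they are other views of the same 4 values.

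The 250 bases before each gene's RefSeq start on GRCm38.p6 were read for 9 of the 10 genes, all but Gsta4. The RefSeq start can differ from the first base of the GENCODE gene. The windows of Gsta2 and Gstt1 lay wholly inside the GENCODE gene, and that of Mgst1 with a match lay inside it for 211 bases, the match included. The Gstp1 window lay inside its gene for 73 bases, which hold most of the match printed below. The windows are shown because the antioxidant response element is the best known control element of this family. The letters TGACNNNGC, searched on both strands, were found in 2 of these 9 genes (Gsta3 and Mgst1) and in 10.2% of 32851 promoter windows of the same length. The related letters TGAGNNNGC, added after the sequences had been read, were found in Gstp1 and Gstt1 and in 14.4% of all windows. Gstp1 held a second match on the reverse strand, in the last 9 bases of its window and inside the gene, which is not printed. GCGTG, the core bound by the aryl hydrocarbon receptor, was found in Gsta2, Gstm1 and Gstp1 and in 28.2% of all windows. Windows of 30 bases around the match are given 5′ to 3′ on the gene's strand with the matched letters in capitals, in Gsta3 at chr1:21240453-21240482 (plus), in Mgst1 at chr6:138140460-138140489 (plus, match on the reverse strand) and in Gstp1 at chr19:4037968-4037997 (minus).
Gsta3: caactcaggcaTGACATTGCatttttcttc
Mgst1: ggcggggcttgGCACGGTCAggaggcgggg
Gstp1: ctccaacgtgtTGAGTCAGCatccggggcg
The Gsta1 window held none of these letters, and its 237 bases up to the annotated start are given at chr9:78230419-78230655 (plus), because Gsta1 had the largest log2 change of the 10 genes under both labels.
Gsta1: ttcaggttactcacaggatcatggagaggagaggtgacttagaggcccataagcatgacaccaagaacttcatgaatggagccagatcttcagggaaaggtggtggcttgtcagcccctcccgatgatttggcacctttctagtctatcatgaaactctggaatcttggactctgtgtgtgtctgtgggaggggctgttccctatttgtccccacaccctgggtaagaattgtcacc
Under the basal and the luminal label in turn, the baicalin ratios were 44.1 and 4.15 for Gsta3 and 1.25 and 0.879 for Mgst1. For the genes with the related letters they were 2.50 and 1.48 for Gstp1 and 1.05 and 0.529 for Gstt1. A role of the letters was not tested. A missing match says only that these letters are not in this window.

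Of 18 other genes of the transferase superfamily, 14 were above 0 in all 4 libraries. Under the basal label 3 of these were higher by more than 1 with baicalin and 1 was lower, against 2.15% and 3.33% of all genes tested. The largest changes among those reaching 5 FPKM were the higher level of Gm3776 and the lower level of Mgst3, a microsomal relative of Mgst1, from 24.3 to 7.87 FPKM. Under the luminal label 2 were higher and 1 lower, against 2.37% and 1.59%, with Hpgds, the sigma-class enzyme that makes prostaglandin D2, at 0.917 FPKM with DMSO and 5.57 FPKM with baicalin. The median log2 changes of the 14 genes were 0.23 and 0.07, beside 1.31 and 0.56 for the 9 followed genes above 0 in all 4 libraries. The followed genes were picked with their values known, so nothing is read from the difference.

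The steps around the transferases were read from lists written from general knowledge. For glutathione supply and recycling, 5 of 12 genes were higher by more than 1 with baicalin under the basal label and 2 of 12 under the luminal label, with medians of 0.69 and 0.53 and none lower by more than 1. The shares of all genes tested, for this and the following lists, were 2.15% and 2.37% higher and 3.33% and 1.59% lower. Gclm, the modifier subunit of the enzyme that starts glutathione synthesis, went from 12.1 to 47.3 FPKM under the basal label. Gclc, its catalytic subunit, went from 56.8 to 154 FPKM under the luminal label. For peroxidases and thiol enzymes, 2 of 14 were higher by more than 1 under each label, and 1 was lower under the luminal label, Gpx3, from 12.2 to 1.28 FPKM. Srxn1, which restores oxidised peroxiredoxins, was among the 2 in both pairs, from 12.5 to 46.2 FPKM and from 9.18 to 50.4 FPKM.

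For the list of conjugate export and mercapturate processing, 4 of 16 genes were higher by more than 1 under the basal label. Under the luminal label 2 of 16 were, against 2.15% and 2.37% of all genes tested in turn. The median log2 changes were 0.09 and 0.23. Both counts include Chac1, an enzyme of free glutathione breakdown, which had the largest change of the list among genes reaching 5 FPKM. Chac1 went from 2.86 to 14.3 FPKM under the basal label and from 0.726 to 8.25 FPKM under the luminal label. Abcc3, an exporter of glutathione and glucuronide conjugates, went from 2.51 to 7.56 FPKM under the basal label, and Abcc4 from 1.77 to 6.92 FPKM under the luminal label. Of 16 other phase II enzymes, 5 were higher by more than 1 under each label and none was lower, with medians of 0.31 and 0.25. Cbr3, a carbonyl reductase, went from 2.57 to 31.8 FPKM under the basal label, and Aldh3a1, an aldehyde dehydrogenase, from 24.2 to 206 FPKM under the luminal label. Of the regulators, none of the 10 tested, among them Nfe2l2, which encodes NRF2, Keap1 and Ahr, passed a change of 1 in either direction, and the median log2 changes were 0.51 and 0.36. At these shares of all genes, a count of 0 among 10 does not set the regulators apart.

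Genes with the pattern most like a transferase over the 4 libraries were ranked by the distance between their 4 log2 levels after each gene's own mean was subtracted, among 9138 genes reaching 5 FPKM, with all genes of the transferase family, their near copies among them, left out. Nearest to Gsta1 among these were Slc7a11, the cystine importer, at 0.73, Gdf15 at 1.79, Gpr137b at 1.94, Rps26-ps1 at 2.12 and Casp14 at 2.34. Nearest to Gsta4 were, of the same genes, Artn at 1.13, Rps26-ps1 at 1.36, Nqo1, a quinone reductase, at 1.39, Nid1 at 1.43 and Cbr3 at 1.51. Nearest to Gstm1 were the small nucleolar RNA genes Gm25777 and Gm23969 at 0.39 and 0.42, Tgfbr3 at 0.44, Rbms3 at 0.50 and Btg2 at 0.52. Gm25777 was at 0.7995 FPKM in the DMSO library labelled basal, which for a short gene rests on few fragments. Mgst1, whose level varied little, had its 5 nearest genes between 0.03 and 0.05, with Mpc1-ps first. These distances rest on 4 values per gene.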

How the data were processed

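RNA from 4 libraries of 3D-cultured mouse mammary cells was used. The authors aligned reads with HISAT2 to GRCm38 (Ensembl release 94), counted them with featureCounts and deposited FPKM with 4 decimals. The submitters' processing notes also name Bowtie 0.12.2. The strand and multi-mapping settings are not given in the sources used here, so near-identical and overlapping genes are uncertain. Fragments were recovered from FPKM and exon lengths of GENCODE mouse release 21, which gave a length for 54409 of 54446 genes. Of genes with up to 50 fragments, between 98.7% and 98.9% per library came within 0.1 of a whole number.

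Changes were log2 ratios with 1 FPKM added, on the 17787 genes above 0 in all 4 libraries, with a threshold of 1 as in the study's methods. This scale understates changes of low genes. The study's methods also required a t-test. With 1 library per condition no test was made here, so the counts cannot be set beside those of the study. Floors used 3 fragments against a library at 0. Copies were found with blastn 2.17.0 at 95% identity over 200 bases. The computation was tested on simulated data.

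The members, lists and alternatives were chosen with earlier results of these data known. All 10 members were named. Of each list, those named came from the 2 largest changes per comparison among genes reaching 5 FPKM, and not all are given. Marker lists of hormone-sensing and alveolar luminal cells were also read. They summed to between 28.2 and 83.3 FPKM and between 106 and 293 FPKM. Scripts ran in Python 3.11.15 with scipy 1.17.1 for intervals, pandas 2.3.3 and numpy 2.4.6 for tables, and matplotlib 3.10.9 for plots.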

Additional observations from a re-analysis of the deposited data

Results flagged for a closer look

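The baicalin change of 2 genes had opposite directions under the labels, each beyond the counting error, and the difference was not tested. For Gstm1 the log2 change under the basal label exceeded that under the luminal label by 2.181, and for Mgst1 by 0.498.

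The difference between the labels had opposite directions with DMSO and with baicalin, each beyond the counting error, for 4 genes, also untested. Gstt1 had opposite directions too, 0.14 and -0.51, but its difference with DMSO did not exceed the counting error. The luminal-minus-basal log2 difference with DMSO exceeded that with baicalin by 1.634 for Gsta2, by 0.752 for Gstp1 and by 0.498 for Mgst1, and for Gsto1 the value was -0.739. These are the same 4 values per gene seen from the other side. With DMSO the log2 difference was small, 0.15 for Gstp1 and 0.18 for Mgst1. After rescaling to the same summed FPKM per library it was 0.045 and 0.072.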

How the results depend on the processing

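No paired analysis was possible because each condition has 1 library. All 82 alternative values of the 20 member changes past 1 kept their sign and stayed past 1 on the log2 scale. A smaller pseudocount can only enlarge such a change, and the median changes subtracted lay between -0.03 and 0.01. This outcome was thus largely fixed in advance and says little about robustness. The stricter filter and threshold below were not among the 82. Requiring 1 FPKM in all 4 libraries leaves out the alpha-class genes that were near 0 with DMSO, so the count of genes higher with baicalin became 3 under the basal label and 2 under the luminal label. A threshold of 2 also gave counts of 3 and 2, but of partly other genes, Gsta1, Gsta3 and Gsta4 and then Gsta1 and Gsta4, in place of Gsta4, Gstm1 and Gstp1 and then Gsta4 and Gsto1. Between the labels under baicalin, that threshold left 1 gene higher in the library labelled luminal, and both settings left 0 lower. Without a filter Gsta2 entered, and 2 genes were lower. Between the DMSO libraries 1 gene was lower with a pseudocount of 0.1 FPKM and 1 with none. The summed Gsta1 and Gsta2 log2 change was 7.32 and 7.78 with a pseudocount of 0.1 and none under the basal label, and 4.94 and 5.18 under the luminal label. Without a pseudocount the difference between labels in the Gsta1 change turned to -0.60, where 1 fragment sets the luminal-labelled DMSO level. Levels under 1 FPKM rest on few fragments.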
